A study of Arabidopsis thaliana with 24 samples.

Results

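UDP-glycosyltransferases, the UGT enzymes of plants, join a sugar from a UDP-sugar donor to small molecules such as flavonols, sinapate, monolignols, salicylate and plant hormones. The sugar usually makes the acceptor more soluble and less active and marks it for storage in the vacuole, and beta-glucosidases can remove it again. Family members are known for narrow or broad acceptor ranges in vitro, and many lie beside close relatives on the chromosome. Messenger RNA of 46 genes of the family is described here in Arabidopsis seedlings moving from darkness into light. The 46 are the genes whose symbol in the ATH1 array's annotation is UGT followed by a digit, taken from probe sets assigned to 1 gene and without UGT78D2. Each is read by 1 probe set, so no choice among probe sets had to be made, out of 13350 genes that have a probe set of their own among 22810 probe sets. A further 4 UGT genes sit on probe sets shared with other genes and are not included, and the current RefSeq table of TAIR10.1 lists 58 genes with such symbols.

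The arrays came from aerial parts of 4-d-old etiolated seedlings of the accession Col-0, kept in the dark or exposed to white light for 4 h. The genotypes were the control and dcp5-1, a mutant of DCP5. The DCP5 protein belongs to processing bodies, granules of the cytoplasm in which mRNAs are held away from ribosomes. Total RNA and polysome-bound RNA were each hybridised, which gave 8 groups of 3 biological replicates, namely control dark, control light, dcp5-1 dark and dcp5-1 light for each fraction. Nothing else distinguishes the groups in the labels, which give neither the nature of the dcp5-1 lesion nor the number of seedlings pooled. No probe set names DCP5, so the genotype labels were not checked against that gene.

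Every value is a log2 signal, on which a difference of 1 is a 2-fold change. Medians of total-RNA arrays lay between 7.335 and 7.443 as deposited, and those of polysomal arrays between 4.407 and 6.759. Each polysomal array was therefore moved to the mean median of the total-RNA arrays, 7.395, and all polysomal values below are relative to the array. The control polysomal dark array of replicate 1 needed the largest shift, 2.988. Changes are given as log2 difference ± SE from limma with 3 arrays in each group, and a change was called at a Benjamini-Hochberg adjusted p below 0.05 over 17059 probe sets. Of the 46 members, 33 were tested, and 13 fell among the 25% of probe sets with the lowest mean signal. P-values set a change against the spread between replicate arrays, taken over all 8 groups, and the number of arrays limits their precision. In whole aerial parts, fewer cells of a type and less RNA in each cell cannot be told apart.

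Light changed members of the family in both directions, in both genotypes and in both RNA fractions. In control total RNA 8 members rose and 4 fell, or 36.4% of those tested, where 29.5% of all probe sets were called. In dcp5-1 total RNA 7 rose and 3 fell, against 21.8% of all probe sets. Polysomal RNA of the control had 8 higher and 6 lower members against 29.1% of all probe sets, and that of dcp5-1 had 7 higher and 2 lower against 21% of all. No test sets these shares of the family against those of all probe sets, and they are given as counts. The median change of the 33 members was 0.157 in control total RNA, beside -0.0393 over all probe sets, and 0.189 beside -0.0455 in dcp5-1 total RNA. In polysomal RNA the medians were -0.017 beside -0.0476 in the control and 0.126 beside -0.0364 in dcp5-1. In all, 14 members were called in at least 1 of the 4 light comparisons, and each of the 14 kept 1 sign of change in all 4. Called as higher in all 4 were UGT78D1, UGT72B3, UGT74D1, UGT71B1, UGT76E11, UGT84A4 and UGT71C4, and called as lower in all 4 were UGT71C2 and UGT71C3.

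**Figure D1:**
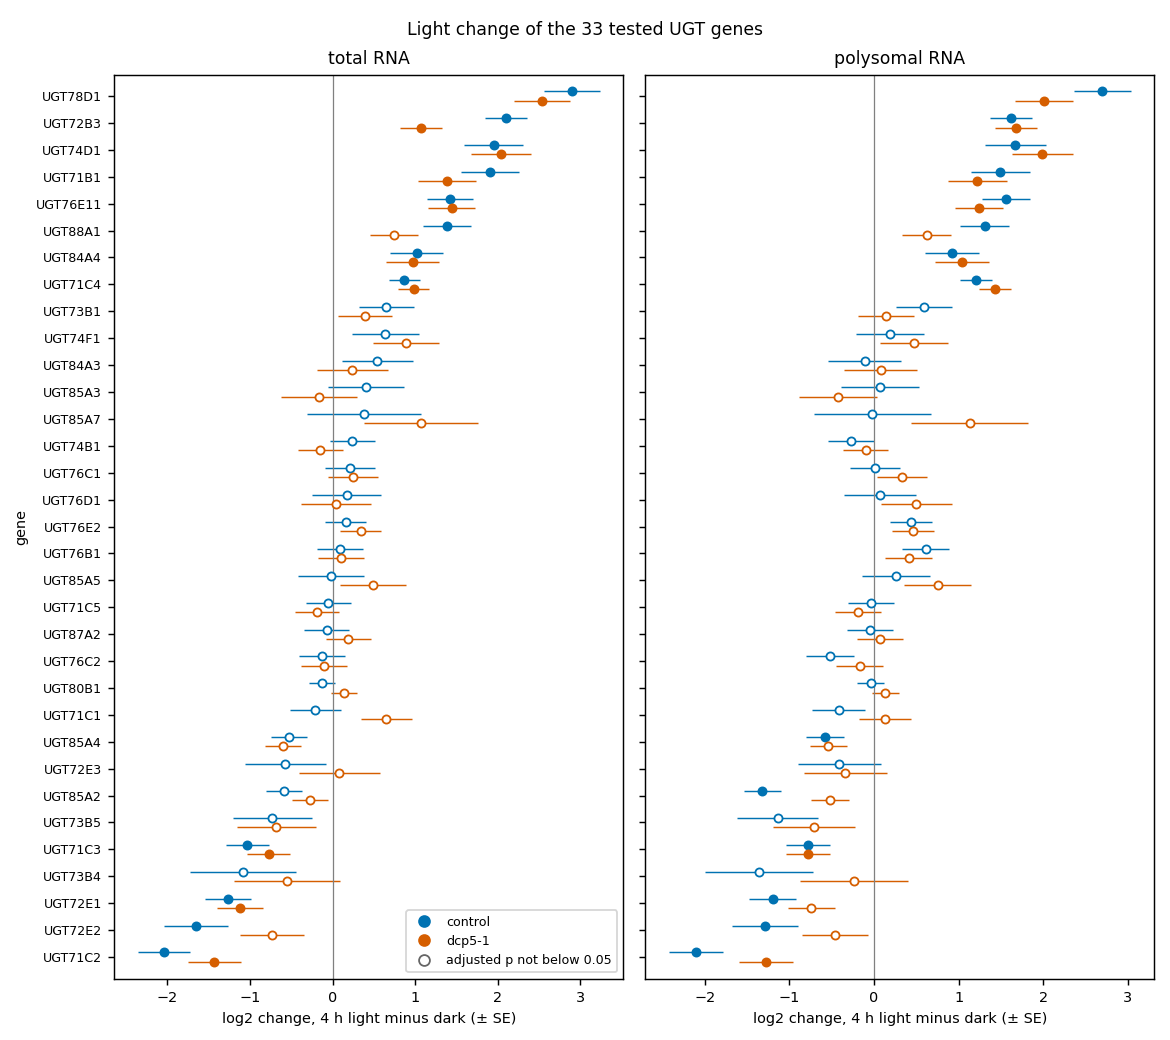
Light change of the 33 tested UGT genes, as log2 signal after 4 h of light minus that in the dark, in total RNA (left) and polysomal RNA (right). Points are fitted differences with SE from the fit of all 8 groups of 3 arrays. They are blue for control and orange for dcp5-1, and filled where the adjusted p was below 0.05. Genes are ordered by the change in control total RNA, from UGT71C2 at the bottom, -2.04, to UGT78D1 at the top, 2.90. Members in the middle were near 0 in that set, and some of them were further from 0 in others.

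UGT78D1 (AT1G30530), the flavonol 3-O-rhamnosyltransferase, had the largest rise of the tested members in all 4 comparisons. In dcp5-1 polysomal RNA its lead over UGT74D1 was within the SE, at 2.01 beside 1.99. In control total RNA the UGT78D1 arrays read 6.36, 7.65 and 7.57 in the dark and 9.83, 10.26 and 10.19 in the light. In dcp5-1 total RNA they read 6.58, 6.38 and 7.00 in the dark and 8.82, 9.68 and 9.06 in the light. Every light array of either genotype lay above every dark array. Its change was 2.90 ± 0.34 (adjusted p = 5.2e-07), a 7.49-fold rise, in the control and 2.53 ± 0.34 (adjusted p = 5.8e-06) in dcp5-1. Polysomal RNA showed the same separation, with 6.27, 7.41 and 6.84 in dark control arrays, 9.41, 9.76 and 9.45 in light control arrays, 6.08, 6.43 and 7.03 in dark dcp5-1 arrays and 8.02, 8.98 and 8.58 in light dcp5-1 arrays. The polysomal changes were 2.70 ± 0.34 (adjusted p = 1.6e-06) and 2.01 ± 0.34 (adjusted p = 0.00011). UGT78D3, the flavonol arabinosyltransferase, and UGT73B1, which takes flavonols in vitro, are the other flavonoid members, beside the dim UGT84A1. UGT73B1 changed by 0.65 ± 0.33 (adjusted p = 0.15) in control total RNA, with adjusted p = 0.046 with the replicate block, and UGT78D3 was too dim to test.

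Among the members that act on phenylpropanoids, UGT72B3 and UGT84A4 rose while UGT72E1 and UGT72E2 fell. UGT72B3 (AT1G01420) is a relative of the monolignol glucosyltransferase UGT72B1. Its control total-RNA arrays read 5.97, 6.50 and 6.23 in the dark and 8.00, 8.41 and 8.60 in the light, and its dcp5-1 arrays 6.43, 6.75 and 6.47 and 7.45, 7.30 and 8.10. The light arrays were all higher, and the change was 2.1 ± 0.25 (adjusted p = 6e-07) in control and 1.07 ± 0.25 (adjusted p = 0.0029) in dcp5-1. In polysomal RNA the rises were 1.62 ± 0.25 (adjusted p = 2.3e-05) and 1.68 ± 0.25 (adjusted p = 2.2e-05). UGT84A4 (AT4G15500), a relative of the enzymes that make glucose esters of sinapate and other hydroxycinnamates, changed by 1.02 ± 0.32 (adjusted p = 0.02) in control and 0.97 ± 0.32 (adjusted p = 0.034) in dcp5-1 total RNA. Its control polysomal groups overlapped, with 6.10, 7.03 and 6.78 in the dark and 6.86, 8.07 and 7.73 in the light. Within replicate numbers, which pair the samples, it rose there in all 3 pairs, by 0.75, 1.04 and 0.96, and the call was kept with the replicate block.

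UGT72E1 (AT3G50740) and UGT72E2 (AT5G66690) glucosylate coniferyl aldehyde and the monolignols coniferyl and sinapyl alcohol. UGT72E2 read 7.59, 9.06 and 9.37 on dark control total-RNA arrays and 6.96, 7.11 and 7.00 on light ones. On dcp5-1 total-RNA arrays it read 8.34, 9.01 and 9.28 in the dark and 8.06, 7.68 and 8.69 in the light. The control groups did not overlap, although the dark replicate 1 array stood well below the other two, and the dcp5-1 groups overlapped. UGT72E2 fell in the control by 1.65 on the log2 scale (SE 0.39, adjusted p = 0.0023), and its change in dcp5-1 was -0.73 ± 0.39 (adjusted p = 0.21), with adjusted p = 0.041 with the replicate block. UGT72E1 fell in total RNA of both genotypes, with -1.27 ± 0.28 (adjusted p = 0.0012) in control and -1.12 ± 0.28 (adjusted p = 0.0052) in dcp5-1. In polysomal RNA both genes fell in the control, UGT72E1 with -1.20 ± 0.28 (adjusted p = 0.0021) and UGT72E2 with -1.29 ± 0.39 (adjusted p = 0.015). In dcp5-1 polysomal RNA they changed by -0.74 ± 0.28 (adjusted p = 0.066) and -0.46 ± 0.39 (adjusted p = 0.47), and UGT72E1 passed there with the block (adjusted p = 0.018). On the values as deposited the control polysomal changes were 0.07 for UGT72E1 and -0.02 for UGT72E2. UGT72E3, the remaining member of this branch, changed by -0.57 ± 0.49 (adjusted p = 0.43) in control total RNA.

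UGT74D1 (AT2G31750) glucosylates auxins and oxidised auxin. Its arrays in control total RNA read 10.01, 8.83 and 9.88 in the dark and 11.78, 11.29 and 11.50 in the light, and those in dcp5-1 9.83, 8.51 and 9.64 and 11.77, 10.92 and 11.41. Replicate 2 was the lowest in each of these 4 groups, and no dark array reached a light one. The rises were 1.95 ± 0.36 (adjusted p = 0.00022) in control and 2.04 ± 0.36 (adjusted p = 2e-04) in dcp5-1. In polysomal RNA UGT74D1 rose by 1.67 ± 0.36 in control and 1.99 ± 0.36 in dcp5-1, with adjusted p of 0.0011 and 0.00028. The other tested gene of the auxin list is UGT74B1, which also glucosylates the thiohydroximate precursors of glucosinolates. UGT74B1 changed by 0.24 ± 0.27 (adjusted p = 0.57) in control total RNA. The auxin members UGT84B1 and UGT84B2 were too dim to test.

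Other members that rose have no single established acceptor in seedlings. UGT71B1 (AT3G21750) read 7.21, 6.34 and 6.82 on dark and 8.99, 8.56 and 8.57 on light control total-RNA arrays, a change of 1.91 ± 0.35 (adjusted p = 0.00019). In dcp5-1 its dark arrays read 7.42, 5.99 and 7.26, with replicate 2 far below the other two, and its light arrays read 8.50, 8.10 and 8.22, a change of 1.38 ± 0.35 (adjusted p = 0.006). UGT76E11 (AT3G46670) read 6.60, 5.59 and 6.11 in dark and 8.04, 6.96 and 7.55 in light control total RNA. Its changes were close together in all comparisons, 1.42 ± 0.28 and 1.44 ± 0.28 in total RNA and 1.56 ± 0.28 and 1.24 ± 0.28 in polysomal RNA of control and dcp5-1, with adjusted p from 0.00017 to 0.0025. UGT88A1 (AT3G16520) rose in the control, from 10.61, 10.00 and 10.32 to 11.98, 11.33 and 11.79 in total RNA, a change of 1.39 ± 0.29 (adjusted p = 8e-04), and by 1.31 ± 0.29 (adjusted p = 0.0015) in polysomal RNA. In dcp5-1 its change was 0.74 ± 0.29 (adjusted p = 0.08) in total and 0.62 ± 0.29 (adjusted p = 0.14) in polysomal RNA. With the replicate block both dcp5-1 changes of UGT88A1 passed, at adjusted p = 6e-04 and 0.0028. The difference of its light change between genotypes did not pass, -0.65 ± 0.42 (adjusted p = 1) in total RNA.

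Falling members were led by UGT71C2 (AT2G29740), whose control total-RNA arrays read 8.24, 8.21 and 8.41 in the dark and 6.33, 6.39 and 6.03 in the light. In dcp5-1 they read 7.32, 7.93 and 8.29 in the dark and 5.95, 6.72 and 6.59 in the light. Dark and light did not overlap in either genotype, and the changes were -2.04 ± 0.32 (adjusted p = 2.6e-05) and -1.43 ± 0.32 (adjusted p = 0.0019). Polysomal RNA gave -2.11 ± 0.32 (adjusted p = 1.8e-05) in control and -1.28 ± 0.32 (adjusted p = 0.0047) in dcp5-1. On the values as deposited neither polysomal change of UGT71C2 passed, at -0.83 (adjusted p = 0.08) in control and -0.90 (0.17) in dcp5-1. UGT71C3 (AT1G07260), which glucosylates methyl salicylate, fell by 1.03 on the log2 scale (SE 0.26, adjusted p = 0.0034) in control total RNA, with smaller values of -0.77 (adjusted p = 0.034) in dcp5-1 total, -0.78 (adjusted p = 0.024) in control polysomal and -0.78 (adjusted p = 0.032) in dcp5-1 polysomal RNA. On the values as deposited UGT71C3 changed by 0.50 (adjusted p = 0.23) in control and -0.40 (0.55) in dcp5-1 polysomal RNA. UGT85A2 (AT1G22360) and UGT85A4 (AT1G78270) were called in control polysomal RNA alone, with -1.32 ± 0.22 (adjusted p = 7.4e-05) and -0.58 ± 0.22 (adjusted p = 0.048), and with -0.05 and 0.69 on the values as deposited. UGT85A2 read 10.05, 10.77 and 10.87 in the dark and 8.63, 9.49 and 9.61 in the light there, and in control total RNA it changed by -0.59 ± 0.22 (adjusted p = 0.051), with adjusted p = 0.03 with the replicate block. With that block UGT85A4 also passed in control total (adjusted p = 0.036), dcp5-1 total (0.024) and dcp5-1 polysomal RNA (0.041), where its changes were -0.53, -0.60 and -0.54.

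**Figure D2:**
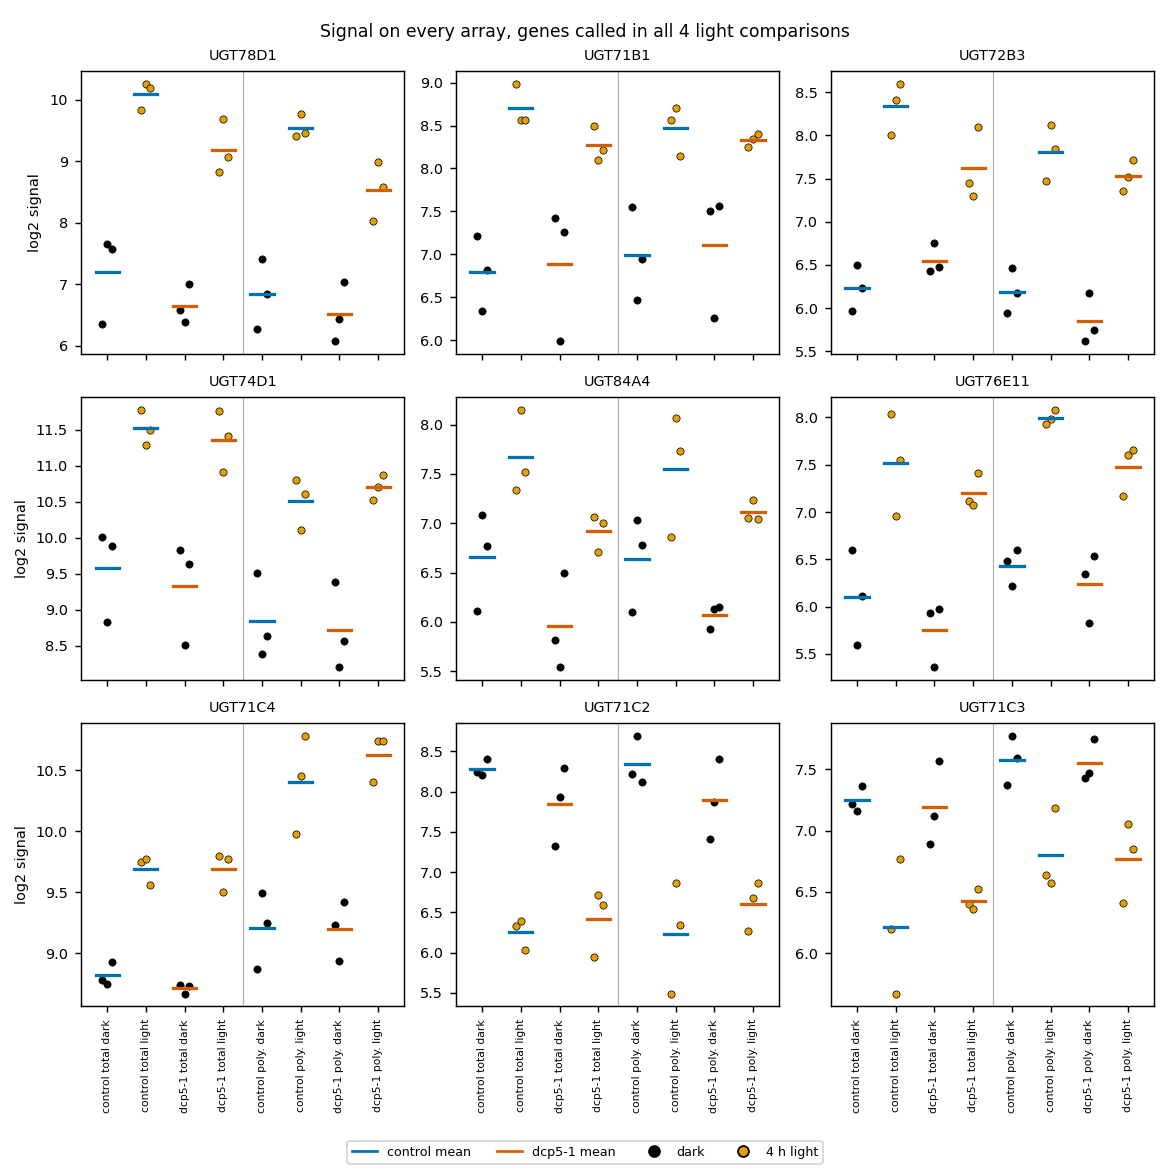
Signal of the 9 genes called in all 4 light comparisons on each of the 24 arrays, as log2 signal against group, with total RNA left of the grey line and polysomal RNA right of it. Dots are single arrays, black in the dark and yellow after 4 h of light, and bars are group means. UGT78D1 light arrays lie above its dark arrays in every pair of groups, UGT71C2 light arrays lie below, and UGT71C4 polysomal light arrays lie above its total-RNA light arrays.

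The 19 tested members called in no light comparison cover several roles. Neither cytokinin N-glucosyltransferase passed, with UGT76C1 at 0.21 (adjusted p = 0.66) and UGT76C2 at -0.13 (adjusted p = 0.8) in control total RNA. UGT74F1 and UGT76B1, which glucosylate salicylate and, for UGT76B1, isoleucic acid and N-hydroxypipecolic acid, changed by 0.64 (adjusted p = 0.25) and 0.09 (adjusted p = 0.86). UGT71C5, which glucosylates abscisic acid, changed by -0.05 (adjusted p = 0.91), and UGT80B1, a sterol glucosyltransferase, by -0.13 (adjusted p = 0.61). UGT87A2, known for an effect on flowering time, changed by -0.07 (adjusted p = 0.88). UGT80B1 held a narrow range over all 24 arrays, from 7.94 to 8.65. Also in no light comparison were UGT71C1, UGT72E3, UGT73B1, UGT73B4, UGT73B5, UGT74B1, UGT76D1, UGT76E2, UGT84A3, UGT85A3, UGT85A5 and UGT85A7. With the replicate block UGT76B1 at 0.61 (adjusted p = 0.032) and UGT76C2 at -0.52 (0.016) passed in control polysomal RNA.

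Some light calls rested on single arrays. Without the control total dark array of replicate 1 or the control total light array of replicate 2, UGT84A4 no longer passed in control total RNA (adjusted p up to 0.12). In dcp5-1 total RNA its call ended without dark replicate 1 or 2 or light replicate 1 or 3 (up to 0.16), in control polysomal RNA without dark replicate 1 or 3 or light replicate 2 or 3 (up to 0.18), and in dcp5-1 polysomal RNA without dark replicate 1 or light replicate 1 or 2 (up to 0.076). UGT71C3 kept its call in control total RNA under every left-out array. It lost it in dcp5-1 total RNA without any array but dark replicate 1 (up to 0.18), in dcp5-1 polysomal RNA without any array but light replicate 2 (up to 0.16), and in control polysomal RNA without dark replicate 2 or 3 or light replicate 1 or 2 (up to 0.095). UGT71B1 lost its dcp5-1 calls without dark replicate 2, with changes of 0.93 (adjusted p = 0.063) in total RNA and 0.80 (0.12) in polysomal RNA. UGT72E2 lost its control polysomal call without dark replicate 2 or 3 or light replicate 1 (up to 0.081), and UGT85A4 lost its own without dark or light replicate 1 or 3 (up to 0.24). The remaining light calls in total and polysomal RNA, those of UGT78D1, UGT72B3, UGT74D1, UGT76E11, UGT71C4, UGT71C2, UGT72E1, UGT88A1 and UGT85A2, of UGT71B1 in control and of UGT72E2 in control total RNA, passed under every left-out array. Every call of this paragraph was kept with the replicate block.

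Some calls ended under another fit of all arrays. For UGT85A4 in control polysomal RNA these were quantile normalisation (adjusted p = 0.067), no filter (0.078), array weights (0.091) and the compared groups alone (0.15). UGT84A4 missed without the filter in dcp5-1 total (0.056) and control polysomal RNA (0.057), and in the latter with the compared groups alone (0.11). UGT71C3 missed without the filter in dcp5-1 total (0.06) and dcp5-1 polysomal RNA (0.057), and in control polysomal RNA with array weights (0.068) and in a fit of the compared groups (0.066). On the values as deposited the changes in total RNA are the same numbers, but UGT71C3 (0.066), UGT71C4 (0.084) and UGT84A4 (0.14) missed in control, and UGT72E1 (0.058), UGT71C4 (0.066), UGT72B3 (0.073), UGT84A4 (0.21) and UGT71C3 (0.25) in dcp5-1.

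Markers of photosynthetic cells rose with light in control total RNA. More such cells and more RNA of these genes in each cell cannot be told apart. All 6 of the 9 listed photosynthetic markers that the annotation names rose in control total RNA, and their summed signal went from between 15300 and 27000 in dark control to between 64700 and 85100 in light control total RNA. In dcp5-1 total RNA 5 of the 6 were called as higher, and PRK missed at 0.99 (adjusted p = 0.057). The annotation names 0 of the 5 listed epidermal and 0 of the 9 listed seed storage symbols. The part of photosynthetic cells in the light changes of the family was not tested.

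The 13 dim members were refitted with every probe set kept, and 1 of them, UGT84A1, was called as higher in all 4 light comparisons. UGT84A1 (AT4G15480) makes glucose esters of hydroxycinnamates such as sinapate. It read 2.74, 3.15 and 1.57 on dark and 6.26, 6.66 and 4.88 on light control total-RNA arrays, and 2.19, 2.37 and 4.61 and 6.60, 7.08 and 6.81 on dcp5-1 arrays. On polysomal arrays it read 1.50, 4.05 and 1.37 in dark control, 6.12, 6.32 and 4.92 in light control, 1.55, 1.97 and 3.21 in dark dcp5-1 and 5.71, 6.05 and 6.64 in light dcp5-1. Each light array lay above each dark array of its own genotype and fraction. Adjusted p-values lay between 0.00063 and 0.0013. All dark values, between 1.37 and 4.61, lie below 4.86, the mean signal under which probe sets were left out, and all 12 light arrays read above that level. The size of the rise is therefore not resolved, and UGT84A1 is not ranked among the members.

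In that fit 2 other dim members passed for light, each in 1 comparison and without a resolved size. UGT73C1, which takes cytokinins and xenobiotics in vitro, passed in control polysomal RNA (adjusted p = 0.014). Its arrays read 0.12, 1.28 and 0.93 in the dark there, at or near the floor of the signal, and 5.89, 3.47 and 3.05 in the light, where 1 of 3 exceeded 4.86. It did not pass in control total (adjusted p = 0.098), dcp5-1 total (0.08) or dcp5-1 polysomal RNA (0.094). UGT84B2, a relative of the auxin glucosyltransferase UGT84B1, passed in control total RNA (adjusted p = 0.035), from 0.00, 0.99 and 0.16 in the dark, at or near the floor, to 4.36, 3.30 and 2.02 in the light, all still below 4.86. In dcp5-1 total RNA its light change had the opposite sign (adjusted p = 0.75). The other dim members, UGT71B5, UGT71B6, UGT71B8, UGT73C2, UGT73C7, UGT73D1, UGT76E1, UGT76E12, UGT78D3 and UGT84B1, passed in no light comparison.

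The adjacent members UGT71C4 and UGT71C3 were called in opposite directions for light. By the order of genes in TAIR10.1, 29 of the 46 members lie in 12 groups whose successive members are at most 3 genes apart, and 18 of the 29 were tested. UGT71C5, UGT71C4 and UGT71C3 follow one another directly on chromosome 1. In control total RNA UGT71C4 rose by 0.87 ± 0.19 (adjusted p = 0.0011), UGT71C3 beside it fell by 1.03, and UGT71C5 changed by -0.05 (adjusted p = 0.91). UGT71C4 read 8.78, 8.75 and 8.93 in the dark and 9.75, 9.77 and 9.56 in the light, and UGT71C3 7.22, 7.16 and 7.36 in the dark and 6.20, 5.67 and 6.77 in the light. These adjacent genes were thus called in opposite directions, and they were so in each of the 4 light comparisons. Outside control total RNA the UGT71C3 call ended when single arrays were left out, as given above. On the values as deposited its control polysomal change was 0.50 (adjusted p = 0.23), the direction of UGT71C4. On chromosome 2, UGT71C2 fell in the light while its direct neighbour UGT71C1 changed by -0.21 (adjusted p = 0.67).

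On chromosome 4, UGT84A1, UGT84A3 and UGT84A4 are consecutive. UGT84A4, at 1.02, and the dim UGT84A1 rose in control total RNA, and UGT84A3 between them changed by 0.54 (adjusted p = 0.39). UGT76E11 rose next to UGT76E12, which was too dim to test. UGT71B1 rose near the dim UGT71B6 and UGT71B8 on chromosome 3. Of the 4 tested genes of the UGT85A group on chromosome 1, UGT85A7, UGT85A2, UGT85A5 and UGT85A3, none passed in total RNA of the control, with changes of 0.38, -0.59, -0.02 and 0.40. In that group UGT85A2 alone was called, in control polysomal RNA. UGT73B5 and UGT73B4 both had negative changes, -0.73 (adjusted p = 0.28) and -1.08 (adjusted p = 0.23), that did not pass. Neighbours are similar in sequence, and cross-hybridisation between their probe sets was not tested.

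**Figure D3:**
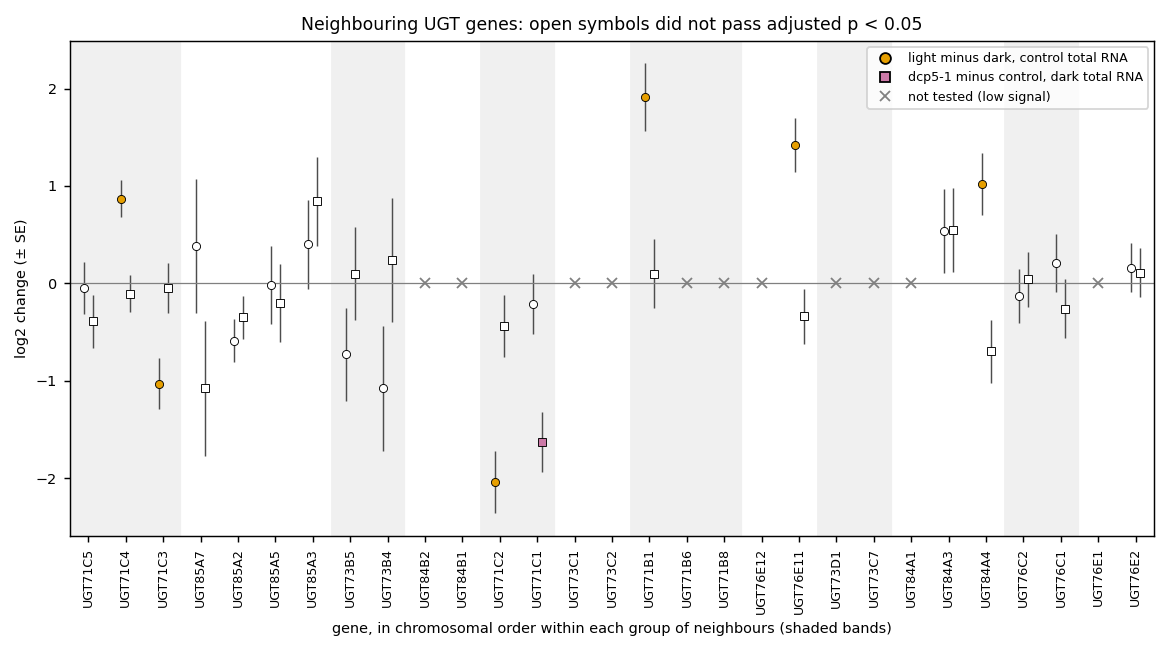
Log2 changes of the 29 members that have a family member at most 3 genes away, in chromosomal order within shaded or white bands for the 12 groups. Circles are the light change in control total RNA and squares the difference of dcp5-1 from control in dark total RNA. Bars are SE from the fit of all 8 groups of 3 arrays. Symbols are filled where the adjusted p was below 0.05, and crosses mark genes too dim to test. UGT71C4 at 0.87 and UGT71C3 at -1.03 are adjacent and opposite, and UGT71C2 and UGT71C1 each have 1 filled symbol, for light and for genotype.

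The phylogenetic branches hold 1 to 11 tested members each, so their counts are given without an order, beside the 29.5% of all probe sets called for light in control and 21.8% in dcp5-1 total RNA. In group E, with the UGT71, UGT72 and UGT88 genes, 4 of 11 tested members rose and 4 fell in control total RNA, and in dcp5-1 3 rose and 3 fell. Group F had 1 tested member, UGT78D1, which rose. Group L, with UGT74 and UGT84 genes, had 2 of 5 tested members higher and 0 lower in both genotypes. Group H, the UGT76 genes, had 1 of 6 higher, UGT76E11, and group D, the UGT73 genes, 0 of 3 called in total RNA of either genotype. Group G, the UGT85A genes, had 0 of 5 called in total RNA. The group D members had medians of -0.73 in control and -0.55 in dcp5-1. In group D limma called 0 of 3 in polysomal RNA as well, and with the replicate block UGT73B1 alone passed, in control total RNA.

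Across the 8 group means, the pair of members most alike was UGT72B3 and UGT78D1, both called for light, with r = 0.97. UGT72E2 and UGT73B4 followed with 0.965, although UGT73B4 was called in no light comparison, and UGT71B1 and UGT78D1 had 0.955. The strongest opposite pair was UGT71C3 and UGT74D1, with r = -0.989, followed by UGT71B1 and UGT71C2 with -0.979 and by UGT73B5, called in no light comparison, and UGT76E11 with -0.978. These are descriptions over 8 points that share 1 light contrast and their arrays.

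Few members of the family, and few of all probe sets, were called between genotypes. In the dark 1 member was lower and 0 higher in dcp5-1 total RNA, beside 2.34% of all probe sets called, and 1 lower and 0 higher in dcp5-1 polysomal RNA, beside 3.32%. In the light limma called 0 of 33 in total RNA, beside 3.51% of all probe sets, with 7 members at an unadjusted p below 0.05. In light polysomal RNA 1 member was higher and 0 lower, beside 4.33%. Medians of the 33 members were -0.111, -0.0256, -0.159 and 0.0863 in the same order, beside -0.0128, -0.0231, -0.0136 and -0.0137 over all probe sets. With the replicate block the light comparisons had 1 higher and 3 lower members in total RNA, beside 8.86% of all probe sets, and 3 higher and 2 lower in polysomal RNA, beside 10% of all. Light and genotype comparisons share arrays, so a gene's values in them are given side by side and not as separate support.

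UGT71C1 (AT2G29750), active on lignans and other phenolics in vitro, was lower in dcp5-1 in the dark. Its total-RNA arrays read 7.18, 8.10 and 7.88 in dark control and 6.44, 5.80 and 6.03 in dark dcp5-1. Polysomal arrays read 7.71, 8.10 and 7.44 in dark control and 6.42, 6.01 and 6.40 in dark dcp5-1. All dcp5-1 arrays lay below all control arrays in both fractions. The difference was -1.63 ± 0.31 (adjusted p = 0.004), a 3.1-fold lower level, in total RNA and -1.47 ± 0.31 (adjusted p = 0.0079) in polysomal RNA. In total RNA it passed under every left-out array, with adjusted p up to 0.035. In polysomal RNA it missed without replicate 2 of dark control or of dark dcp5-1 (up to 0.058), and on the values as deposited it was -0.58 (adjusted p = 0.16).

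In the light UGT71C1 read 7.26, 7.92 and 7.35 in control and 6.70, 6.40 and 7.11 in dcp5-1 total RNA, and the groups again did not overlap. The difference in light was -0.77 ± 0.31 (adjusted p = 0.2) in total and -0.93 ± 0.31 (adjusted p = 0.096) in polysomal RNA, so it did not pass there. The change of the genotype difference with light was 0.86 ± 0.44 (adjusted p = 1) in total RNA, and the dark and light values are thus not shown to differ. Of 12 listed root symbols 3 are named in the annotation. EXPA18, an expansin of root hairs, was higher in dark dcp5-1 total RNA, with 1.60 ± 0.41 (adjusted p = 0.036), at 6.74 to 7.08 against 5.25 to 5.42 in dark control. In dark polysomal RNA it differed by 1.23 ± 0.41 (adjusted p = 0.11). EXPA7, another expansin of root hairs, was below the filter. PYK10, a beta-glucosidase of endoplasmic reticulum bodies in roots and hypocotyls, read 14.02 to 14.96 on every array and differed by -0.06 (adjusted p = 0.94). The 3 root genes summed to 16600 to 22800 in dark control and 17600 to 20500 in dark dcp5-1 total RNA, of which PYK10 made up at least 98.9%. Without PYK10 the sums were 48 to 59 and 121 to 224. The part of root-type tissue in the UGT71C1 difference was not tested.

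UGT76D1 (AT2G26480) glucosylates dihydroxybenzoic acids, the breakdown products of salicylate. It was higher in dcp5-1 in light polysomal RNA, where the arrays read 4.69, 5.21 and 4.03 in control and 6.26, 5.89 and 6.58 in dcp5-1. The groups did not overlap and differed by 1.60 ± 0.42 (adjusted p = 0.03). Control arrays there averaged 4.64, below the mean signal of 4.86 under which probe sets were left out, so the size of the difference rests on dim arrays. The call ended without replicate 1 or 3 of either genotype (adjusted p up to 0.14), on the values as deposited (0.26) and in a fit of the compared groups alone (0.15). In dark polysomal RNA the difference was 1.18 ± 0.42 (adjusted p = 0.14), and in total RNA it was 0.52 ± 0.42 (adjusted p = 0.67) in the dark and 0.39 ± 0.42 (adjusted p = 0.74) in the light. All 4 differences had 1 sign, and 1 of them passed. EXPA18 was also higher in dcp5-1 light polysomal RNA, by 1.94 ± 0.41 (adjusted p = 0.0065), at 6.64 to 7.09 against 3.47 to 6.12 in control. The root genes without PYK10 summed to 106 to 209 and 16.6 to 74.9 in these groups, and PYK10 differed by -0.03 (adjusted p = 0.96). The part of root-type tissue in the UGT76D1 difference was not tested.

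Several members differed between genotypes in the light when replicate numbers were kept as a block. With that block 1 member was higher and 3 lower in light total RNA, beside 8.86% of all probe sets called. In light polysomal RNA 3 were higher and 2 lower, beside 10% of all. UGT72E2 in light total RNA read 6.96, 7.11 and 7.00 in control and 8.06, 7.68 and 8.69 in dcp5-1, with no overlap, a difference of 1.12 ± 0.39 (adjusted p = 0.13) and adjusted p = 0.0085 with the replicate block. UGT78D1 in the same groups read 9.83, 10.26 and 10.19 in control and 8.82, 9.68 and 9.06 in dcp5-1, a difference of -0.91 ± 0.34 (adjusted p = 0.17) and adjusted p = 0.016 with the replicate block. In light total RNA the dcp5-1 means of both genes lay between their control light and control dark means. The control light arrays enter both the light change and this difference, so these values are not separate results. In dark total RNA the genotype differences had the same signs, 0.20 (adjusted p = 0.9) for UGT72E2 and -0.54 (adjusted p = 0.55) for UGT78D1. A lower level of UGT78D1 in both conditions and a smaller light response were thus not told apart. UGT72B3 at -0.72 and UGT74B1 at -0.67 also passed with the block, with adjusted p of 0.031 and 0.03. In light polysomal RNA the block added UGT72E1 at 0.76 (0.037), UGT72E2 at 0.94 (0.024), UGT78D1 at -1.01 (0.0066) and UGT88A1 at -0.49 (0.043). Without the block none of these 8 differences in the light passed in the fit of all 8 groups. With array weights UGT72E2 (adjusted p = 0.02), UGT78D1 (0.02) and UGT72B3 (0.012) also passed in light total RNA, and in a fit of the compared groups alone UGT72E2 did (0.031).

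**Figure D4:**
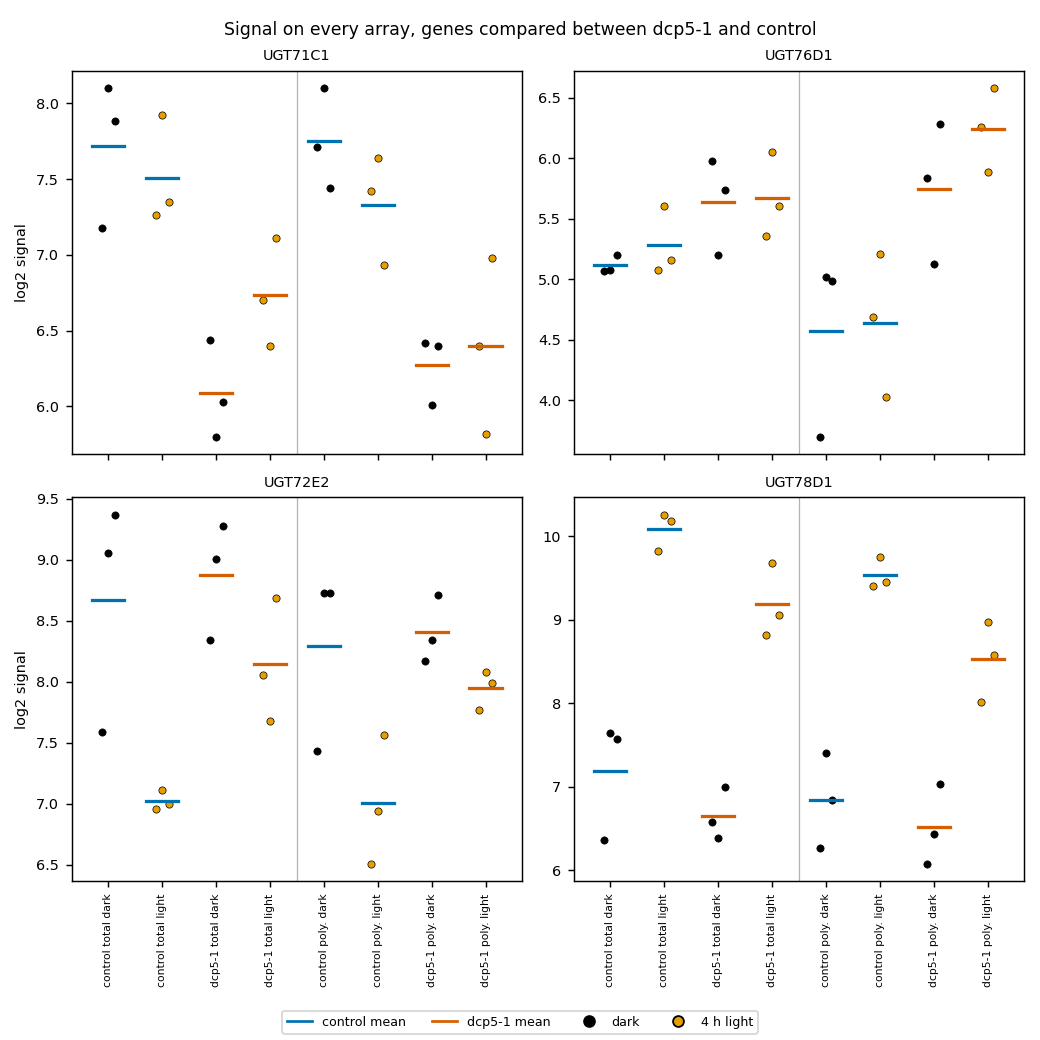
Signal of 4 genes on each of the 24 arrays, as log2 signal against group, with total RNA left of the grey line and polysomal RNA right of it. Dots are single arrays, black in the dark and yellow after 4 h of light, and bars are group means, blue for control and orange for dcp5-1. UGT71C1 is lower in dark dcp5-1, at 5.80 to 6.44 against 7.18 to 8.10 in total RNA, UGT76D1 is higher in light dcp5-1 polysomal RNA, and UGT72E2 and UGT78D1 are shown for light differences that did not pass in the fit of all 8 groups (adjusted p = 0.13 and 0.17 in total RNA) and passed with the replicate block (0.0085 and 0.016).

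No member's light response was shown to differ between genotypes. Limma called 0 of 33 in total RNA and 0 of 33 in polysomal RNA, beside 0.0469% and 0.0528% of all probe sets, and every alternative fit also gave 0. At an unadjusted p below 0.05 there was 1 member in each. UGT72B3 rose less in dcp5-1 than in control total RNA, by -1.04 ± 0.35 (unadjusted p = 0.0074, adjusted p = 0.88), and differed by 0.06 ± 0.35 in polysomal RNA. UGT85A2 differed by 0.81 ± 0.32 in polysomal RNA (unadjusted p = 0.018, adjusted p = 0.95). For UGT72E2, called in the control and not in dcp5-1, the difference was 0.92 ± 0.55 (adjusted p = 1) in total and 0.83 ± 0.55 (adjusted p = 1) in polysomal RNA. For UGT78D1 it was -0.37 in total and -0.69 in polysomal RNA. Median differences were 0.0491 and 0.17 over the 33 members in total and polysomal RNA, beside -0.00749 and 0.0158 over all probe sets.

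Polysome loading, the polysomal minus the total signal after the arrays had been brought to 1 median, set few members apart. In control dark RNA 0 members were above and 1 below, beside 12.5% of all probe sets called, and in control light 1 above and 1 below, beside 13.7%. In dcp5-1 dark 0 were above and 2 below, beside 13.8%, and in dcp5-1 light 1 above and 1 below, beside 12.7%. Median loading of the 33 members was -0.015 and -0.172 in dark and light control and -0.0767 and -0.0642 in dark and light dcp5-1. Over all probe sets the medians were 0.0538, 0.0307, 0.053 and 0.0587. With the replicate block 2 members were above and 3 below in control dark, 3 and 4 in control light, 2 and 4 in dcp5-1 dark and 2 and 3 in dcp5-1 light. All probe sets gave 22.3%, 24.1%, 23.8% and 23.4% with that block.

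UGT73B1 (AT4G34138) had a lower polysomal than total signal in all 4 conditions. It read 9.01, 7.71 and 7.52 in total and 7.90, 6.62 and 6.61 in polysomal RNA of dark control, and 9.02, 8.43 and 8.75 and 7.84, 7.65 and 7.43 in light control. In dcp5-1 it read 8.55, 8.18 and 7.96 and 7.29, 6.83 and 6.75 in the dark and 8.62, 8.56 and 8.68 and 6.93, 7.02 and 7.34 in the light. The fractions overlapped in dark control, where replicate 1 was high in both, and in no other condition. Polysomal minus total signal within replicate numbers was negative in all 3 pairs of each condition, at -1.11, -1.08 and -0.91 in dark control. The differences were -1.04 ± 0.33 (adjusted p = 0.04), -1.09 ± 0.33 (adjusted p = 0.029), -1.27 ± 0.33 (adjusted p = 0.012) and -1.53 ± 0.33 (adjusted p = 0.0039) in that order. The call in dark control ended without the filter (adjusted p = 0.059), with no variance trend (0.054), with the compared groups alone (0.19) and without total replicate 1 or polysomal replicate 2 or 3 (up to 0.26), and in light control without total replicate 1 or 3 or polysomal replicate 2 or 3 (up to 0.12). In dark dcp5-1 it ended without total replicate 1 or polysomal replicate 3 (up to 0.059), and in light dcp5-1 it passed under every left-out array. All 4 calls were kept with the replicate block.

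UGT71C4 was the member above the array level, in the light. Its light arrays read 9.75, 9.77 and 9.56 in total and 9.98, 10.45 and 10.78 in polysomal RNA of the control, and 9.80, 9.50 and 9.77 and 10.40, 10.74 and 10.74 in dcp5-1. The fractions did not overlap, and loading was 0.71 ± 0.19 (adjusted p = 0.015) in control and 0.94 ± 0.19 (adjusted p = 0.0026) in dcp5-1. Control light lost the call without total or polysomal replicate 3 (adjusted p up to 0.12) and with the compared groups alone (0.097). In the dark its loading was 0.38 ± 0.19 (adjusted p = 0.21) in control and 0.49 ± 0.19 (adjusted p = 0.096) in dcp5-1, where it passed with the block (adjusted p = 0.045). On the values as deposited UGT71C4 was not above in either light group, with -0.23 and -0.01.

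UGT72E1 was below in dark dcp5-1, -0.87 ± 0.28 (adjusted p = 0.042), and this call ended without any 1 of 5 of its 6 arrays (adjusted p up to 0.17), total or polysomal replicate 1 or 3 or total replicate 2. It also ended without the filter (0.062) and with no variance trend (0.053). Among the dim members, refitted with every probe set kept, UGT71B8 passed in the same groups, from 2.39, 4.39 and 2.67 in total to 5.10, 5.31 and 4.85 in polysomal RNA (adjusted p = 0.045), a difference of unresolved size, and no other dim member passed for loading. With the block UGT72E1 also passed in dark control, at -0.65 (adjusted p = 0.048). The block added UGT88A1 above the array level in all 4 conditions, from 0.44 in light dcp5-1 (adjusted p = 0.04) to 0.77 in dark control (0.00091), and UGT74D1 below it in all 4, from -0.60 in dark dcp5-1 (0.044) to -1.01 in light control (0.0014). It also added UGT85A4 above in control, at 0.63 in the dark (0.024) and 0.59 in the light (0.034). Below were UGT74B1 and UGT76C2 in light control, at -0.60 (0.027) and -0.57 (0.015), UGT72B3 in dark dcp5-1, at -0.70 (0.016), and UGT78D1 in light dcp5-1, at -0.66 (0.047).

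**Figure D5:**
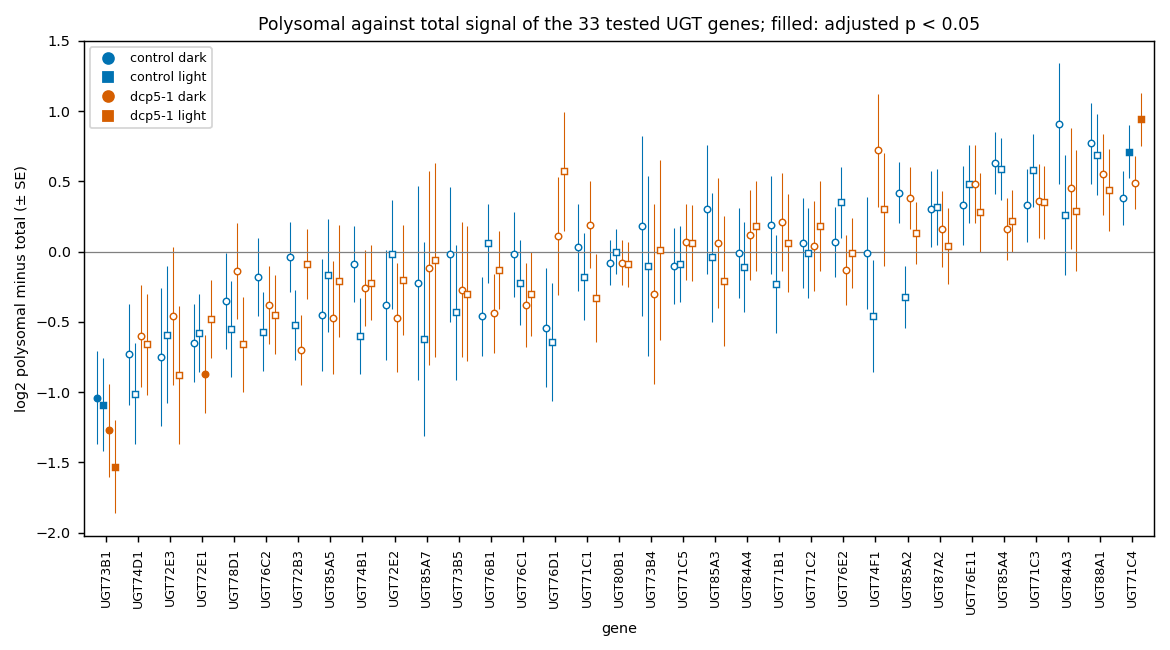
Polysome loading of the 33 tested UGT genes, as log2 polysomal minus total signal after arrays were brought to 1 median. Bars are SE from the fit of all 8 groups of 3 arrays. Circles are dark and squares light, blue for control and orange for dcp5-1, filled where the adjusted p was below 0.05, and genes are ordered by mean loading. UGT73B1 at the left is below 0 in all 4 conditions, from -1.04 to -1.53, and UGT71C4 at the right is filled in the light at 0.71 and 0.94.

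Loading of the members was not shown to change with light or genotype. Limma called 0 of 33 for the light change of loading in control and in dcp5-1 and for the genotype change of loading in dark and in light, beside 0% of all probe sets in each of the 4. At an unadjusted p below 0.05 the light change in control had 1 member, UGT85A2 with -0.73 ± 0.32 (unadjusted p = 0.029), and the other comparisons had 0. Median changes over the 33 members were -0.0959 in control and -0.0106 in dcp5-1 for light and -0.0201 in dark and 0.0304 in light for genotype. In each case the median over all probe sets lay between -0.0229 and 0.00726. The replicate block also gave 0 in all 4.

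Genes that remove or supply the sugar were listed alongside. Of 20 beta-glucosidases named BGLU and a digit, 12 were tested, and in control total RNA 6 rose and 1 fell with light, and in dcp5-1 4 rose and 1 fell, against the 29.5% and 21.8% of all probe sets given above. Their median change was 0.77 in control and 0.04 in dcp5-1, beside -0.0393 and -0.0455 over all probe sets. The light response of the 12 was not shown to differ between genotypes. For that difference in total RNA 0 of them were called, and its median was -0.02, beside -0.00749 over all probe sets. BGLU45 and BGLU46, which hydrolyse monolignol glucosides, rose by 0.87 (adjusted p = 0.015) and 0.86 (adjusted p = 0.016) in control total RNA, where UGT72E1 and UGT72E2 fell. BGLU47, another gene of that clade, rose by 2.95 ± 0.35 (adjusted p = 5.8e-07), and BGLU15, which hydrolyses flavonol bisglycosides, changed by -1.29 (adjusted p = 4.1e-05). BGLU45 was also higher in dcp5-1, by 1.29 in the dark (adjusted p = 0.0087) and 1.44 in the light (adjusted p = 0.0021) in total RNA, the only tested beta-glucosidase called there. Of 38 symbols listed for the supply of nucleotide sugars the annotation names 1, USP, a UDP-sugar pyrophosphorylase. USP changed with light by 0.28 (adjusted p = 0.33) in control and 0.18 (adjusted p = 0.6) in dcp5-1 total RNA.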

How the data were processed

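The authors deposited log2 signals from ATH1 arrays of Affymetrix, 1 column for each of 24 samples, and GCOS 1.4 made the signals per the submitters' processing notes. How the polysomal arrays were scaled is not given in the sources used here. Total-RNA arrays were used as deposited, and each polysomal array was shifted by 1 constant, between 0.6354 and 2.988, so that its median equalled the mean median of the total-RNA arrays, 7.395. Within groups arrays correlated at r = 0.939 to 0.974, and 0 columns were identical. Left out were 64 control probe sets and, of the others, the dimmest 25% by mean signal (below 4.86).

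All 8 group means entered 1 limma fit (version 3.58.1, R 4.3.3) whose variance prior followed the mean signal, and p-values were adjusted by Benjamini-Hochberg over 17059 probe sets in each of 18 comparisons. A light by genotype value is the light change of dcp5-1 less that of the control, and a genotype value is dcp5-1 minus control. Replicate numbers come from the sample titles and paired the samples: residuals of same-numbered arrays correlated at 0.152 to 0.61 over the 12 pairs of groups compared directly, each above 0.1. A fit with the replicate number as a block is therefore given where it changes a call. The fit without the block was also run on simulated arrays with known changes. Their residuals were drawn independently, so that run does not cover the correlation of same-numbered arrays.

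Alternatives were the values as deposited, every array centred, quantile normalisation, other filters on low values, array weights, no trend in the variance, a fit of the compared groups alone, the replicate block and each array left out. The members, role lists, pathway lists and markers were chosen with earlier results of these data known. Named members are the called ones with the largest change in each comparison, at most 8, and every other member by count and range. The symbol FDH in the annotation is formate dehydrogenase and was not used as an epidermal marker. Promoter and protein sequences were not used here.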

Additional observations from a re-analysis of the deposited data

How the results depend on the processing

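Of the 55 member calls, 27 were kept under every alternative in which the gene was tested, and 50 kept their direction under every such alternative. Under every left-out array 37 were kept. All 55 were kept with the replicate block, which added 35 and ended no call. Scaling mattered most. On the values as deposited the median of all probe sets moved to 1.23 for light in control polysomal RNA and 0.877 for genotype in dark polysomal RNA, and the family counts became 5 for light in dcp5-1 total RNA, 23 for light in control polysomal RNA, 12 and 0 for genotype in dark and light polysomal RNA, 33 and 18 for loading in dark and light control, 29 and 17 for loading in dark and light dcp5-1, and 15 for the light change of loading in control. Total-RNA arrays have no shift, so member changes in total RNA are the same numbers on the values as deposited and only their adjusted p moved. For light in control polysomal RNA it reversed UGT71C3 (0.50), UGT72E1 (0.07), UGT76C2 (0.76) and UGT85A4 (0.69). Loading reversed for UGT85A4 (-1.59 in dark and -0.36 in light control), UGT88A1 (-1.45 and -0.26 in dark and light control, -0.78 and -0.51 in dark and light dcp5-1) and UGT71C4 (-0.23 in light control, -0.85 and -0.01 in dark and light dcp5-1).

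With the lower 50% of probe sets left out 18 of the 33 members were still tested. Counts were then 6 for light in dcp5-1 total, 9 in control polysomal and 4 in dcp5-1 polysomal RNA, 0 for genotype in dark total, dark polysomal and light polysomal RNA, where UGT71C1 and UGT76D1 were not tested, and 2 for loading in dark control. No filter gave 0 and no variance trend 0 for loading in dark control, and no trend gave 1 for loading in dark dcp5-1. The compared groups alone gave 1 and 0 for genotype in light total and light polysomal RNA and 0 for loading in dark control. Array weights gave 3 for genotype in light total RNA and 6, 4 and 4 for loading in dark control, light control and dark dcp5-1. The replicate block gave 4 and 5 for genotype in light total and polysomal RNA, and 5, 7, 6 and 5 for loading in dark and light control and dark and light dcp5-1. The cause of these moves was not tested.

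Leaving out single arrays gave counts of 11 to 12, 8 to 11, 10 to 13 and 7 to 9 for light in control total, dcp5-1 total, control polysomal and dcp5-1 polysomal RNA. For genotype the ranges were 1 to 1 in dark total, 0 to 0 in light total and 0 to 1 in dark and in light polysomal RNA. For loading they were 0 to 2 in dark control, 0 to 3 in light control, 0 to 3 in dark dcp5-1 and 2 to 2 in light dcp5-1. The control polysomal dark array of replicate 1, which needed the largest shift, gave 2 for loading in dark control when left out. Every member had 1 probe set, so taking the lowest-mean probe set could not give another value. With 3 arrays in each group, changes near the SE of dim probe sets could not be resolved.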
